A study of Mus musculus with 1012 samples.

Results

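Live-seq biopsies of IBA cells were compared with Live-seq biopsies of ASPC_Pre cells, that is, of a brown preadipocyte line with untreated primary adipose stem and progenitor cells. A Live-seq biopsy is cytoplasm drawn out of a living cell through a hollow cantilever probe, followed by an enhanced low-input Smart-seq2 library. Cells were taken from the labelled cell type, treatment and technique, in the 2 labelled batches that hold both cell types, 8_8 and 9_4. This gave 92 of the 1012 libraries of the series, 31 of IBA and 61 of ASPC_Pre, and 92 of its 296 Live-seq libraries. IBA is an immortalised line whose founder cells came from the interscapular brown fat of young male C57BL6/J mice. The ASPCs were primary cells from subcutaneous fat of female C57BL/6J mice, per the methods of the study, and were not induced to differentiate. Both were kept in the same high-glucose medium with serum and both are labelled as not treated. Of the 43 ASPC_Pre cells of batch 9_4, 31 carry an extraction order of 1 in the labels, which marks the cells of a sequential sampling experiment. For that experiment the study used ASPCs that had been transduced with a barcode and GFP lentivirus, diluted with other ASPCs and seeded densely. Selected cells that expressed GFP were then extracted. IBA cells therefore stand for a single line. The difference between the cell types cannot be told apart from those in depot, immortalisation and plating that go with them. For the sequentially sampled cells of batch 9_4 the same holds for transduction.

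Preadipocytes are fibroblast-like cells that can become fat cells. Those of brown fat give thermogenic adipocytes and those of subcutaneous fat mainly give white or beige ones, and both make collagen, secreted WNT modulators and growth factor binding proteins. Primary stromal cells spread on stiff plastic often build actin stress fibres with smooth muscle actin, whereas an immortalised line keeps dividing. The lists of genes described here cover these programmes.

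The 2 batches differed in the number of genes found. Genes detected per biopsy had a median of 3528.5 in the 14 IBA cells of batch 8_8 and 6276 in the 17 IBA cells of batch 9_4. For ASPC_Pre the medians were 1636 in the 18 cells of batch 8_8 and 6057 in the 43 cells of batch 9_4. With every biopsy thinned to 50000 counts the medians were 2786.5 and 4908 for IBA and 1403.5 and 4771 for ASPC_Pre, so that the ASPC_Pre cells of batch 8_8 remained the poorest in genes. Total counts per biopsy ran from 83553 to 1502418. Counts were summed over the cells of a cell type within a batch, which gave 4 sums, of 4321698 and 7851346 counts for IBA and 4009571 and 15905560 counts for ASPC_Pre after the genes left out. Levels are given below as CPM, the counts of a gene per 1000000 counts of these sums, scaled by TMM, always with batch 8_8 before batch 9_4. Since CPM are not divided by gene length, they are compared between sums and not between genes. Of the 7995 genes with a mean of at least 20 CPM in IBA or ASPC_Pre, 1115 (13.9%) had no count in the ASPC_Pre sum of batch 8_8, against 0.225 to 3.48% in the other 3 sums. A value of 0 in that sum thus says less than elsewhere.

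A single gene fell in IBA by the test across genes. With edgeR's quasi-likelihood test and batch as a block, 1 of 13815 genes was called (0.00724%), at an adjusted p below 0.05 and a fold above 2, and 4.31% of genes had an unadjusted p below 0.05. That gene was Gpx3, which encodes the secreted glutathione peroxidase (chromosome 11, positions 54902453 to 54910377, GRCm38). Its level was 0.214 and 0.683 CPM in IBA and 731.9 and 6244 CPM in ASPC_Pre. Gpx3 had 1 and 6 counts in the IBA sums, and at least 2 counts in 15 of 18 and 43 of 43 ASPC_Pre cells but in 0 of 31 IBA cells. The log2 fold change was -12.65 with an SE of 0.71 and an adjusted p of 0.0119. The call ended without any 1 of the 4 sums, with adjusted p from 0.148 to 0.49, without the batch block (adjusted p 0.15), and with the Live-seq sums of every batch in the fit (adjusted p 0.263), while the log2 fold change stayed between -13.1 and -11.15. The spread behind the call was estimated over all 9 Live-seq sums of the 2 batches. Those include sums of macrophage-like RAW cells and of ASPCs induced to differentiate. Each of the 2 cell types compared had 2 sums of cells, and nothing in the labels says that the batches were separate mice. With 2 sums against 2, an exact permutation test of a single gene cannot go below 0.33.

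The fit of edgeR 4 with its newer defaults called 1 gene higher in IBA (0.00724%) and 9 genes lower (0.0651%). DESeq2 on the same sums called 1.79% of genes, 0.782% as higher in IBA and 1.01% as lower. On simulated sums most DESeq2 calls were of unchanged genes. There a fixed number of genes was changed and all genes had 1 common spread. The simulation therefore does not give the share of false calls among the DESeq2 calls here. Because the fits differ so much, no gene is named from the DESeq2 calls. Apart from Gpx3, the genes below are therefore described by their levels. A gene is called set apart where its mean in the higher cell type was at least 20 CPM and the lower of its 2 sums was more than 2 times the higher sum of the other cell type. Of the 7995 genes at that level, 8.88% were set apart with IBA higher and 8.11% with ASPC_Pre higher. Without scaling beyond library size the shares were 13.1% and 5.73%, which moved the share with IBA higher from 52.3% to 69.5% of the genes set apart. The log2 ratio of IBA over ASPC_Pre had the same sign in both batches for 5029 of the 7995 genes (62.9%).

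Many sums rested on few cells. A single cell held more than 0.5 of the counts for 59.1% of the 7995 genes in ASPC_Pre of batch 8_8 and for 39.4% in IBA of batch 8_8, against 5.99% and 15.9% in batch 9_4. With the cell of the highest count of each gene taken out of both sums of the higher cell type, 45.9% of the genes with IBA higher and 44.1% of those with ASPC_Pre higher were still set apart. The list members that were no longer set apart are, among the genes named below, Tek, Mmp2, Timp3, Serpinh1, Col6a3, Cxcl14, Serping1, Shox2, Cebpb, Srebf1, Ccnd2, Mdm2, Cdkn1a, Cdkn2c, Peg3, Meg3, Neat1 and Runx1.

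**Figure D1:**
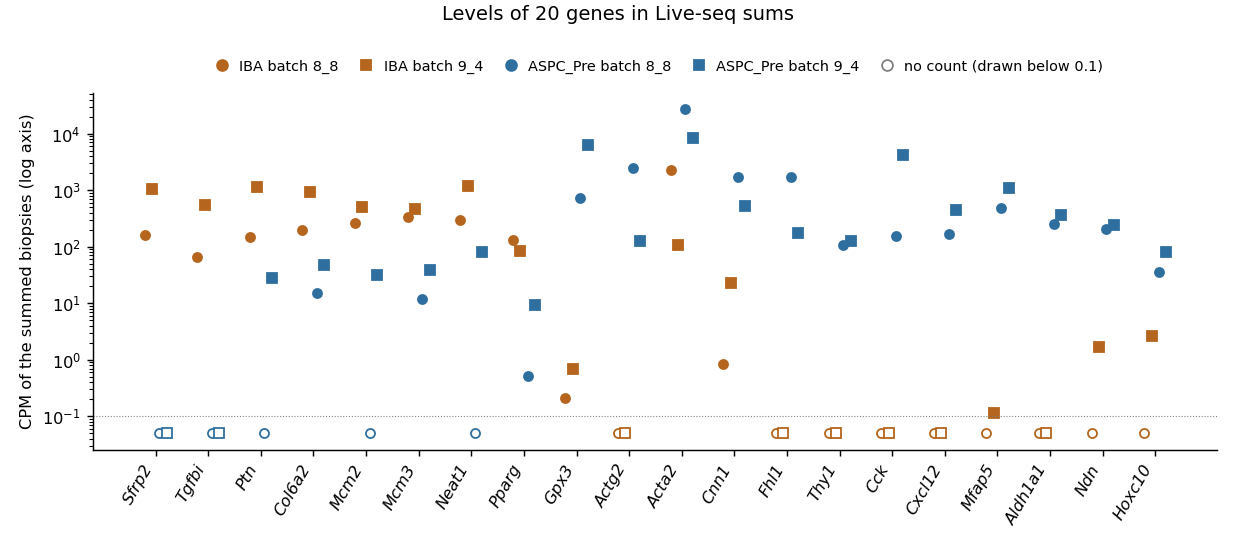
Levels of 20 genes in the 4 Live-seq sums, on a log axis in CPM. Brown symbols are IBA and blue symbols ASPC_Pre, circles batch 8_8 and squares batch 9_4, and open symbols mark sums with no count. For each gene shown the 2 sums of one cell type lie above the 2 sums of the other.

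With at least 2 counts required, markers of their own type were found in 23 of the 31 IBA cells and 60 of the 61 ASPC_Pre cells. Sfrp2, a secreted WNT modulator, stood at 163.9 and 1047 CPM in IBA and had no count in any of the 61 ASPC_Pre cells. Against a floor of 3 counts per sum this is at least 209.1-fold and 4521-fold higher in IBA. Such folds, here and below, describe the counted sums and do not bound the difference between the cells. Tgfbi, an extracellular matrix adaptor protein, stood at 65.0 and 553.99 CPM in IBA and likewise had no count in ASPC_Pre, at least 82.9-fold and 2391-fold higher in IBA. In the other direction Actg2, the enteric smooth muscle actin, had 2503 and 126 CPM in ASPC_Pre and no count in IBA. At least 2 counts of Sfrp2 or Tgfbi were found in 7 of 14 and 16 of 17 IBA cells. Likewise, at least 2 counts of Actg2 or Gpx3 were found in 17 of 18 and 43 of 43 ASPC_Pre cells. No cell of either type had at least 2 counts of markers of both types, and 7 of the 8 IBA cells with none came from batch 8_8. These genes were chosen with results of the same cells known, so their separation is a description.

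Markers of mesenchymal cells were present in both cell types. The 10 listed members summed to 3035 and 9165 CPM in IBA and to 9755 and 15370 CPM in ASPC_Pre. Type I collagen was counted in all 4 sums, Col1a1 at 704.3 and 2453 CPM in IBA and at 3839 and 1073 CPM in ASPC_Pre, with the cell types in opposite order in the 2 batches. Thy1, a surface glycoprotein of stromal cells, was the 1 of 10 members set apart (10%, against 8.11% of all genes). It had no count in the 31 IBA cells and stood at 108.9 and 126 CPM in ASPC_Pre, with at least 2 counts in 11 of 18 and 38 of 43 cells. Ly6a (Sca-1), used to sort these progenitors, was at 3.003 and 160 CPM in IBA and at 237.2 and 1543 CPM in ASPC_Pre, so that the higher IBA sum came within 2 times of the lower ASPC_Pre sum.

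Other cell types had low marker levels, with a few exceptions. The 10 macrophage markers summed to 0.643 and 14.6 CPM in IBA and to 1.31 and 105.6 CPM in ASPC_Pre, against 7653 to 10830 CPM in the macrophage-like RAW cells of the same batches. In ASPC_Pre of batch 9_4 this sum was mostly Csf1r at 52.4 CPM, with at least 2 counts in 19 of 43 cells, and Lyz2, whereas 3 of the 10 markers had no count. Endothelial markers summed to 0.214 and 0.455 CPM in IBA and to 49.9 and 7.80 CPM in ASPC_Pre, nearly all of it Tek, and 4 of the 6 had no count in either ASPC_Pre sum. Of the mural markers, Cspg4 was set apart with IBA higher, at 84.9 and 30.1 CPM against 0 and 2.47 CPM. Among mesothelial markers, Krt19, a keratin of simple epithelia, was set apart with ASPC_Pre higher, at 224.1 and 45.2 CPM against 4.29 and 0 CPM, while 5 of the 6 mesothelial markers had no count in ASPC_Pre of batch 8_8. Msln and Wt1 ran the other way in batch 9_4, at 12.9 and 4.78 CPM in IBA and at 0.0772 and 0.463 CPM in ASPC_Pre. Epithelial markers had no count in any of the 4 sums, and Schwann cell markers stayed at or below 0.455 CPM. Adipocyte markers summed to 3.86 and 12.8 CPM in IBA and to 35.8 and 22.6 CPM in ASPC_Pre. The part of these cells in the differences described here was not tested.

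Y-linked genes did not follow the stated sexes. Ddx3y, an RNA helicase, stood at 7.51 and 48.1 CPM in IBA and at 96.7 and 68.7 CPM in ASPC_Pre. At least 1 count of Ddx3y, Eif2s3y, Kdm5d or Uty was found in 6 of 18 and 25 of 43 ASPC_Pre cells and in 3 of 14 and 12 of 17 IBA cells. Xist, the long RNA of the inactive X chromosome, was counted in 2 of the 61 ASPC_Pre cells, with 75 counts in all, and in no IBA cell. Whole ASPC_Pre cells of batches 8_8 and 9_1 had a Y-linked count in 8 of 16 and 35 of 44 cells. Xist was counted in 4 of these 16 and 4 of these 44 cells. The sex of the ASPC_Pre cells was not tested, and sex cannot be taken as a difference between the groups from the methods alone. The reporter EGFP was counted in 29 of 43 ASPC_Pre cells of batch 9_4 (67.4%, exact 95% interval 51.5 to 80.9%), in 1 of 17 IBA cells of that batch with 1 count, and in none of the 32 cells of batch 8_8. It was counted in 21 of the 31 cells with an extraction order of 1 and in 8 of the 12 without one.

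Genes of the contractile apparatus were higher in ASPC_Pre. Of 20 listed genes 16 were tested and at or above 20 CPM, and 13 of these were set apart with ASPC_Pre higher (81.2%, against 8.11% of all genes) and 0 with IBA higher. All 13 stayed set apart with the highest cell of each gene taken out. The median log2 ratio of the 16 was -5.23, against 0.12 for all genes at that level. Acta2, the smooth muscle actin that marks myofibroblasts, stood at 2263 and 109.04 CPM in IBA and at 27280 and 8424 CPM in ASPC_Pre, 12.1-fold and 77.3-fold higher. At least 2 counts of Acta2 were found in 18 of 18 and 43 of 43 ASPC_Pre cells and in 11 of 14 and 7 of 17 IBA cells, and 1 cell held 60.4% of the Acta2 counts of IBA in batch 8_8. Calponin Cnn1, which binds actin filaments in smooth muscle, was at 0.858 and 22.8 CPM in IBA and at 1720 and 515.8 CPM in ASPC_Pre. Both ASPC_Pre sums of these genes lay far above both IBA sums.

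Fhl1, Acta1 and Tagln had no or almost no counts in IBA. Fhl1, a LIM-domain protein of muscle, had none, and stood at 1715 and 173 CPM in ASPC_Pre, at least 2666-fold and 506.8-fold higher. The skeletal muscle actin Acta1 was at 3.65 and 0.228 CPM in IBA and at 781.8 and 195.8 CPM in ASPC_Pre. Tagln (transgelin, SM22), an actin-bundling protein, was at 3.003 and 0.228 CPM in IBA and at 267.5 and 104.7 CPM in ASPC_Pre, with at least 2 counts in 16 of 18 and 41 of 43 cells. These 3 genes were thus seen in most or many ASPC_Pre cells and in at most 2 IBA cells of a batch. Lmod1, which nucleates actin filaments, and Mylk, the myosin light chain kinase, were also set apart, and 1 cell held 47.6% of the Mylk counts of ASPC_Pre in batch 8_8. Myosin light chain Myl9 was at 162 and 4.89 CPM in IBA and at 2321 and 734.1 CPM in ASPC_Pre.

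Tropomyosins and caldesmon, which are also used by cells without a muscle programme, differed less. Tpm1 was 6.46-fold and 4.08-fold higher in ASPC_Pre, Tpm2 7.13-fold and 7.54-fold, and Cald1 7.75-fold and 4.54-fold. Cnn2 (3.15-fold and 5.30-fold), Fhl2 and Smtn, a smoothelin, were not set apart, and Smtn was 4.97-fold higher in ASPC_Pre in batch 8_8 but 1.09-fold higher in IBA in batch 9_4. The smooth muscle myosin Myh11 was not tested because too few whole cells had it. It stood at 0.643 and 0 CPM in IBA and at 152.3 and 22.9 CPM in ASPC_Pre, in 2 and 3 cells.

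Many contractile genes are known targets of serum response factor, which binds the CArG box. Promoters that carry this motif are shown because 13 of the 16 contractile genes at 20 CPM or more were set apart with ASPC_Pre higher. The CArG box was searched by its consensus on both strands in the RefSeq promoter windows of GRCm38.p6, from 250 bases before to 50 after the start of a gene. It was found in 1.63% of 32851 windows and in 5 of the 17 contractile genes with a window (29.4%). The 30 bases around each match, with the box in capitals and on the strand of the gene, were these.
Acta1: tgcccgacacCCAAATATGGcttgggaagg
Actc1: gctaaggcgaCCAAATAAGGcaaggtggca
Cnn2: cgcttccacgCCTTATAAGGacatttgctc
Myl9: caagcagaggCCTAATAAGGccgggctggc
Fhl2: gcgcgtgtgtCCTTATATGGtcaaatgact

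They lie at chr8:123894829-123894858, chr2:114052903-114052932, chr10:79988534-79988563, chr2:156775293-156775322 and chr1:43163973-43164002, in that order, with Cnn2 and Myl9 on the forward strand and the others on the reverse strand. The boxes of Acta1, Actc1, Cnn2 and Fhl2 began 73, 47, 56 and 31 bases before the start, and that of Myl9 lay farther upstream. Acta1 and Myl9 were set apart with ASPC_Pre higher, Cnn2 and Fhl2 were higher in ASPC_Pre in both batches without being set apart, and Actc1, the cardiac actin, stayed below 20 CPM. A match describes the letters of a window and not binding.

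**Figure D2:**
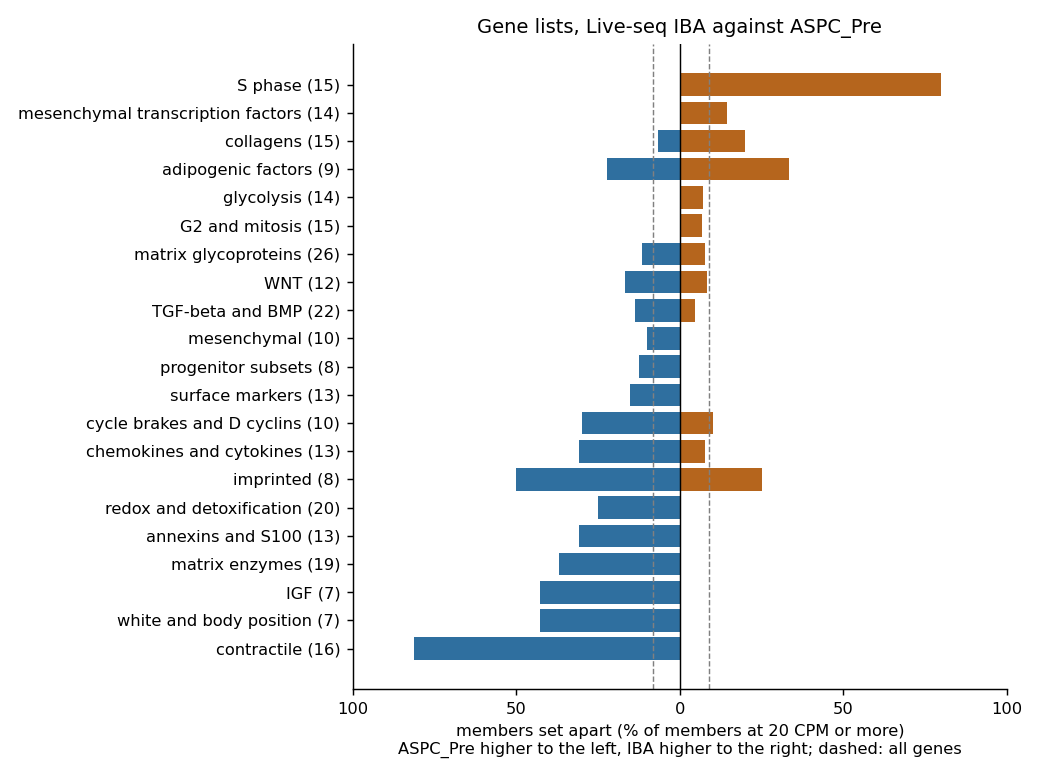
Share of the members of each gene list that were set apart, in percent of members tested and at 20 CPM or more, whose number stands in parentheses. Bars to the left are members with ASPC_Pre higher and bars to the right with IBA higher, and the dashed lines give all genes (8.11% and 8.88%). Only lists with at least 5 such members are drawn, and of these the contractile list (81.2%, left) and the S phase list (80%, right) reach farthest.

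Of 15 collagen genes at 20 CPM or more, 3 were set apart with IBA higher (20%, against 8.88% of all genes) and 1 with ASPC_Pre higher (6.67%, against 8.11%). Col6a2, a chain of the microfibrillar type VI collagen, was at 194.7 and 930 CPM in IBA and at 15.2 and 47.4 CPM in ASPC_Pre, 12.9-fold and 19.6-fold higher in IBA. Its partner chain Col6a3 was 2.46-fold and 16.9-fold higher, and Col6a1 1.98-fold and 15.8-fold, so that these chains had the same direction. The third IBA-higher member was Col18a1, the source of endostatin, at 44.2 and 79.2 CPM against 0 and 2.86 CPM. Col12a1, a fibril-associated collagen, was set apart the other way, at 20.6 and 55.4 CPM in IBA and 656.2 and 207.5 CPM in ASPC_Pre. The fibrillar chains Col1a1, Col1a2 and Col3a1 changed sides between batches.

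Among 26 matrix glycoproteins and proteoglycans 2 were set apart with IBA higher (7.69%) and 3 with ASPC_Pre higher (11.5%), close to the shares of all genes (8.88% and 8.11%). The growth factor Ptn (pleiotrophin) was at 147.3 and 1152 CPM in IBA and at 0 and 27.5 CPM in ASPC_Pre, with at least 2 counts in 5 of 14 and 16 of 17 IBA cells. The other was the marker Tgfbi. Mfap5, a protein of elastic microfibrils, had 0 and 1 count in the IBA sums and stood at 481.7 and 1094 CPM in ASPC_Pre, with at least 2 counts in 42 of the 43 cells of batch 9_4. Prelp, a leucine-rich proteoglycan, was at 0 and 11.95 CPM in IBA and at 101.1 and 973.98 CPM in ASPC_Pre. The adhesive glycoprotein Thbs1 was 6.85-fold and 17.5-fold higher in ASPC_Pre, at 4641 and 3020 CPM. Sparc, which binds collagen, was 4.60-fold and 5.53-fold higher in ASPC_Pre and missed being set apart, because its IBA sum of batch 9_4 (1659 CPM) came within 2 times of the ASPC_Pre sum of batch 8_8 (2915 CPM).

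Enzymes that cut, crosslink or fold the matrix, with their inhibitors, were higher in ASPC_Pre where they were set apart. That held for 7 of 19 genes (36.8%, against 8.11% of all genes), and for 0 with IBA higher. With the highest cell of each gene taken out it held for 1 gene. The gelatinase Mmp2 was at 0 and 13.5 CPM in IBA and at 40.7 and 333.5 CPM in ASPC_Pre, with 94.2% of the counts of ASPC_Pre in batch 8_8 in 1 cell. Timp3, an inhibitor of metalloproteinases, was 2.45-fold and 21.95-fold higher in ASPC_Pre, and Timp2 2.78-fold and 5.55-fold. Serpinh1, the collagen chaperone HSP47, was 9.11-fold and 2.11-fold higher. Mmp3 (stromelysin) stood at 461.2 CPM in ASPC_Pre of batch 9_4 and had no count in the other 3 sums. The lysyl oxidase Lox was at 353.4 and 2236 CPM in IBA and at 2245 and 5172 CPM in ASPC_Pre, higher in ASPC_Pre in each batch although the groups touch.

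WNT pathway genes gave a contrast between 2 related inhibitors. Sfrp1, a secreted frizzled-related protein like Sfrp2, was at 0 and 3.07 CPM in IBA and at 196.7 and 469.1 CPM in ASPC_Pre, with at least 2 counts in 6 of 18 and 37 of 43 cells. Sfrp2 had the opposite order. The ligand Wnt5a had no count in IBA and 10.97 and 58.8 CPM in ASPC_Pre, at least 17.05-fold and 172.1-fold higher. Of the 12 WNT genes at 20 CPM or more, 1 was set apart with IBA higher (8.33%, against 8.88% of all genes). With ASPC_Pre higher there were 2 (16.7%, against 8.11%). In both batches 9 were higher in ASPC_Pre (75%, against 30.9% of all genes) and 2 higher in IBA (16.7%, against 32.0%). The receptor gene Fzd2 was higher in IBA in both batches, and Fzd1 changed sides between them.

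In the IGF list 3 of 7 members were set apart with ASPC_Pre higher (42.9%, against 8.11% of all genes), namely the ligand Igf1, at 8.36 and 2.62 CPM in IBA and 131 and 169.5 CPM in ASPC_Pre, and the binding proteins Igfbp4 and Igfbp2. In batch 8_8 a single cell held 82.5% of the Igf1 counts of ASPC_Pre. Of the Igfbp2 counts, 1 cell held 88.9% and 85.2% of the ASPC_Pre sums. In the TGF-beta and BMP list 3 of 22 genes were set apart with ASPC_Pre higher (13.6%, against 8.11% of all genes). With IBA higher there was 1 (4.55%, against 8.88% of all genes). Follistatin (Fst), which binds activins, was at 3.43 and 0 CPM in IBA and at 327.05 and 119.4 CPM in ASPC_Pre. The ligand Tgfb3 was 87.3-fold and 17.9-fold higher in ASPC_Pre, with 87.4% of the ASPC_Pre counts of batch 8_8 in 1 cell, and Ltbp1, which holds latent TGF-beta in the matrix, was 5.57-fold and 4.98-fold higher in IBA.

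Chemokines and secreted peptides showed 4 of 13 members set apart with ASPC_Pre higher (30.8%, against 8.11% of all genes). With IBA higher there was 1 (7.69%, against 8.88% of all genes). Cxcl12, the stromal chemokine that binds CXCR4, had no count in IBA and 169.5 and 442.9 CPM in ASPC_Pre, at least 263.5-fold and 1297-fold higher. The peptide hormone gene Cck had no count in IBA and stood at 157.8 and 4232 CPM in ASPC_Pre, in 6 of 18 and 43 of 43 cells. A single cell held 56.9% of the Cck counts of batch 8_8. Cxcl14 was also set apart, but 1 cell held 100% and 82.9% of its ASPC_Pre counts. The neutrophil chemokine Cxcl1 was the member with IBA higher, at 222.4 and 93.9 CPM against 0 and 8.03 CPM. Ccl11 (eotaxin) stood at 291.7 CPM in ASPC_Pre of batch 9_4 alone, in 28 of 43 cells, with no count in the other 3 sums. Of the complement genes, 3 of 10 reached 20 CPM. Of these, Serping1, the C1 inhibitor, was set apart with ASPC_Pre higher (33.3%, against 8.11% of all genes). It stood at 0 and 0.114 CPM in IBA and 2.35 and 168.6 CPM in ASPC_Pre. In batch 8_8 this was 9 counts in 1 cell, without which Serping1 was not set apart.

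Redox and detoxification genes were higher in ASPC_Pre where set apart, in 5 of 20 genes (25%, against 8.11% of all genes), with 0 the other way. Beside Gpx3 these were Aldh1a1, Nqo1, Hmox1 and Srxn1. Aldh1a1, a retinaldehyde dehydrogenase, had no count in IBA and 252.1 and 363.8 CPM in ASPC_Pre, at least 391.8-fold and 1065-fold higher. Haem oxygenase Hmox1 was at 106.4 and 182 CPM in IBA and at 977.7 and 4379 CPM in ASPC_Pre. The quinone reductase Nqo1 was 36.3-fold and 15.8-fold higher and Srxn1, which repairs peroxiredoxins, 6.63-fold and 5.14-fold. Txnrd1 and Gclm, of the thioredoxin and glutathione systems, were higher in ASPC_Pre in both batches without being set apart, and Akr1b3 and Gsta4 were higher in IBA in both.

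Genes of brown or white lineage were mostly low. Of the brown lineage list 3 genes reached 20 CPM and 0 were set apart. Ebf2, a transcription factor of brown preadipocytes, was at 58.98 and 30.6 CPM in IBA and at 82.8 and 38.6 CPM in ASPC_Pre, a difference of 1.40-fold and 1.26-fold, and its ASPC_Pre counts of batch 8_8 all came from 1 cell. Prdm16 was counted in batch 8_8 only, at 12.4 CPM in IBA and 129 CPM in ASPC_Pre, each from a single cell. Ucp1 and Myf5 were not analysed here. Genes of body position gave 3 of 7 members set apart with ASPC_Pre higher (42.9%, against 8.11% of all genes). Hoxc10, a homeobox gene of the posterior body, was at 0 and 2.62 CPM in IBA and at 36.3 and 80.3 CPM in ASPC_Pre, and Hoxa10 was at 0.643 and 0 CPM against 33.7 and 100 CPM. In batch 8_8, however, 1 cell held 93.8% of the Hoxa10 counts. Shox2 was 2.78-fold and 3.30-fold higher in ASPC_Pre, while Hoxc6, Hoxc8, Hoxc9 and Tbx15 were present in both cell types and not set apart.

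Adipogenic transcription factors split. Of 9 at 20 CPM or more, 3 were set apart with IBA higher (33.3%, against 8.88% of all genes). With ASPC_Pre higher there were 2 (22.2%, against 8.11%). Pparg, the master regulator of fat cell formation, was at 132 and 83.7 CPM in IBA and at 0.522 and 9.19 CPM in ASPC_Pre, with at least 2 counts in 7 of 14 and 8 of 17 IBA cells and in 1 of 18 and 7 of 43 ASPC_Pre cells. Klf5, an early adipogenic factor, was at 45.9 and 20.3 CPM against 0 and 0.695 CPM, and Srebf1 was 3.39-fold and 3.37-fold higher in IBA. Klf4 and Cebpb, which act at the start of differentiation, were set apart the other way. Klf4 was at 0 and 0.683 CPM in IBA and at 227.5 and 34.4 CPM in ASPC_Pre. For Pparg, whole cells of batches 8_8 and 9_1 differed less than the biopsies. Its level there was 84.7 and 31.5 CPM in IBA and 70.7 and 14.2 CPM in ASPC_Pre. In the surface marker list Thy1 and Cd24a were the 2 of 13 members set apart, both with ASPC_Pre higher (15.4%, against 8.11% of all genes). Of the 8 progenitor subset markers at 20 CPM or more, Mfap5 alone was set apart (12.5%, against 8.11% of all genes). Icam1, Cd55 and Sema3c had at most 0.522 CPM in batch 8_8 and 101.6, 70.1 and 97.6 CPM in ASPC_Pre of batch 9_4.

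S phase genes were higher in IBA. Of 15 listed genes 12 were set apart with IBA higher (80%, against 8.88% of all genes) and 0 with ASPC_Pre higher, and 10 of the 12 stayed so with the highest cell of each gene taken out. All but Rrm2 were higher in IBA in both batches, and the median log2 ratio of the list was 2.41. The MCM genes, which encode the replicative helicase, were set apart together. Mcm2 was at 264.9 and 502.9 CPM in IBA and at 0 and 31.9 CPM in ASPC_Pre, with at least 2 counts in 8 of 14 and 17 of 17 IBA cells and in 0 of 18 and 13 of 43 ASPC_Pre cells. Mcm3 was at 330.9 and 474.1 CPM against 12.02 and 38.3 CPM, and Mcm6 at 410.7 and 986.6 CPM against 75.2 and 37.7 CPM. Pcna, the sliding clamp of DNA polymerase, was 5.01-fold and 3.63-fold higher in IBA. Rrm2, a subunit of ribonucleotide reductase, was the exception, at 1096 and 224.01 CPM in IBA and 1826 and 632.4 CPM in ASPC_Pre.

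E2F factors drive many S phase genes. Their site was searched as TTTCGCGC or TTTGGCGC on both strands in the same promoter windows, because the listed genes lay on the IBA side together. It occurred in 0.813% of 32851 windows and in 4 of the 13 S phase genes with a window (30.8%), namely Mcm3, Mcm5, Mcm6 and Uhrf1. All 4 were set apart with IBA higher, as were 12 of the 15 listed S phase genes (80%). A link of the site to this difference was not tested. The matches with the site in capitals were these, with that of Mcm3 at the end of its window and past the start of the gene.
Mcm3: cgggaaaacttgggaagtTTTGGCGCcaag
Mcm5: cgccaagaacTTTCGCGCcaaaacgtccag
Mcm6: ggcgtatgctTTTGGCGCgaaaagtgcgtg
Uhrf1: ccgagtcgggTTTCGCGCgcccaggcgtct

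These stretches of GRCm38.p6 lie at chr1:20820263-20820292, chr8:75109346-75109375, chr1:128359796-128359825 and chr17:56304118-56304147, with Mcm5 and Uhrf1 on the forward strand. In Mcm5 and Mcm6 a second site on the other strand overlapped the one shown, and Mcm6 held a further site 47 bases before its start. The sites shown for Mcm6 and Uhrf1 began 110 and 185 bases before the start, and that of Mcm5 between them.

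Of 15 G2 and mitosis genes, 12 were higher in IBA in both batches (80%, against 32.0% of all genes) and 0 were higher in ASPC_Pre in both. Only 1 was set apart, a share of 6.67% against 8.88% of all genes. That was Cenpf, a kinetochore protein, at 82.8 and 76.8 CPM against 0 and 6.26 CPM. Mki67, the proliferation antigen, was 5.86-fold and 12.8-fold higher in IBA, whereas Cdk1 was 1.49-fold and 2.07-fold higher. The log2 ratio of IBA over ASPC_Pre for Mki67 was 2.55 and 3.68 in these biopsies. In whole cells it was 0.19 in batch 8_8 and 3.76 in batch 9_1. Among the 10 cell cycle brakes and D cyclins, Ccnd2, Mdm2 and Cdkn1a were set apart with ASPC_Pre higher (30%, against 8.11% of all genes). Cdkn1a (p21), a cyclin-dependent kinase inhibitor, was 2.36-fold and 6.08-fold higher, and Mdm2, which targets p53, 2.27-fold and 6.98-fold. Cyclin D2 was at 173 and 103.5 CPM in IBA and at 430 and 3479 CPM in ASPC_Pre, and Cdkn2c, a kinase inhibitor of the INK4 group, was set apart with IBA higher.

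Imprinted genes, which are expressed from the copy of a single parent, were set apart in both directions. Of 8 members, 2 had IBA higher (25%, against 8.88% of all genes) and 4 had ASPC_Pre higher (50%, against 8.11%). Ndn (necdin), a growth suppressor, was at 0 and 1.71 CPM in IBA and at 205.1 and 243.9 CPM in ASPC_Pre, in 7 of 18 and 35 of 43 cells. Peg3, Meg3 and Snrpn had the same order at lower levels, and for Peg3 a single cell held all counts of ASPC_Pre in batch 8_8. Plagl1, a zinc finger factor, was at 34.5 and 43.3 CPM in IBA and 0 and 0.772 CPM in ASPC_Pre, and Peg10 was 4.90-fold and 6.22-fold higher in IBA. Of 4 long RNAs retained in the nucleus, Neat1 was set apart with IBA higher and the imprinted Meg3 with ASPC_Pre higher. Each was 25% of the list, against 8.88% and 8.11% of all genes. Malat1 was at 2854 and 5317 CPM in IBA and at 25.6 and 1519 CPM in ASPC_Pre. Neat1, the scaffold of paraspeckles, was at 300.3 and 1205 CPM against 0 and 81.8 CPM, but 1 cell held 74.3% of its counts in IBA of batch 8_8 and 60.7% in ASPC_Pre of batch 9_4.

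Annexins and S100 proteins, which bind calcium, had 4 of 13 members set apart, all with ASPC_Pre higher (30.8%, against 8.11% of all genes). Anxa1 was at 990.6 and 822.6 CPM in IBA and at 4331 and 4561 CPM in ASPC_Pre, a close agreement between batches. S100a16 was at 0 and 0.797 CPM against 93.3 and 483.7 CPM, and S100a11 was 3.18-fold and 3.5-fold higher in ASPC_Pre. Of 14 mesenchymal transcription factors 2 were set apart, Runx1 and Osr1, both with IBA higher, and Prrx1 and Twist2 differed by less than 2.61-fold in either batch. Glycolysis genes gave 1 of 14, the lactate transporter Slc16a3, at 213.2 and 147.5 CPM in IBA and 6.01 and 45.95 CPM in ASPC_Pre. Gapdh, Pkm and Aldoa differed by at most 2.41-fold in either batch. The shares with IBA higher, 14.3% for these factors and 7.14% for glycolysis, stood beside 8.88% of all genes.

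The spread between cells was wide but left the cell types apart for some lists. The summed contractile list had a median of 4582 and 2606 CPM of a biopsy in IBA and of 51700 and 13600 in ASPC_Pre. The ranges were 2554 to 20400 and 1444 to 5060 in IBA, and 6853 to 115800 and 3321 to 60580 in ASPC_Pre. All 61 ASPC_Pre cells lay above the median of the IBA cells, 28 lay above the highest IBA cell, and 16 of 31 IBA cells lay below the lowest ASPC_Pre cell. In batch 9_4 the median was 12540 in ASPC_Pre cells with an extraction order of 1 and 17550 in those without. The S phase list had medians of 5983 and 6625 in IBA and 1757 and 766.7 in ASPC_Pre, and 30 of 31 IBA cells lay above the median of the ASPC_Pre cells. The redox list, which holds Gpx3, had medians of 1845 and 2828 in IBA and 4717 and 11460 in ASPC_Pre, with 47 of 61 ASPC_Pre cells above the highest IBA cell. Cells that share a batch label are not independent replicates of a cell type, so no test was made over them.

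**Figure D3:**
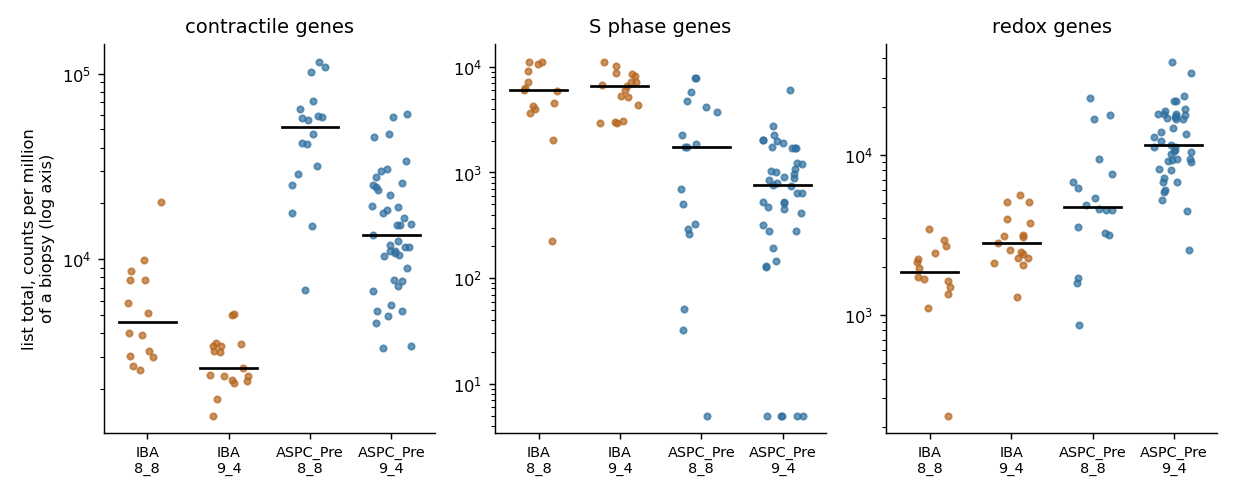
Summed CPM of 3 gene lists in each biopsy, on log axes, for each of the 31 IBA cells (brown) and 61 ASPC_Pre cells (blue) by batch. Bars are medians, and the 6 ASPC_Pre cells with no S phase count are drawn at the foot of the middle panel. ASPC_Pre cells lie higher for contractile and redox genes and lower for S phase genes.

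Biopsies of IBA cells from batch 7, which holds no ASPC_Pre, gave a further sum that had no part in setting genes apart. It held 13 cells and 9702359 counts. Of the genes set apart with IBA higher, 72.3% stood in this sum at more than 2 times both ASPC_Pre sums, against 15.9% of all 7995 genes. Of the genes with ASPC_Pre higher, 71.8% stood at less than the inverse of that ratio of both, against 19.4% of all genes. The ASPC_Pre sums in this comparison were those used to choose the genes, and batch and cell type cannot be told apart in it. All 16 contractile genes but 1 lay below both ASPC_Pre sums by that measure, and 12 of the 15 S phase genes lay above. Sfrp2 was at 1877 CPM and Tgfbi at 292.9 CPM in batch 7, Actg2, Thy1 and Cck had no count, and Gpx3 was at 19.8 CPM, above the other IBA sums and below the 731.9 CPM of ASPC_Pre in batch 8_8. Other genes did not follow their class. Of the genes with IBA higher, 1.97% stood in batch 7 more than 2 times below both ASPC_Pre sums, and of those with ASPC_Pre higher 0.617% stood above both by that measure. Mmp2 was at 208.05 CPM, Col12a1 at 215.1 CPM, Igf1 at 109.3 CPM and Meg3 at 29.1 CPM, each above or within 2 times of an ASPC_Pre sum. Of the genes with IBA higher, Osr1 was at 12.6 CPM, below both ASPC_Pre sums, and Klf5 at 1.72 CPM, below the other IBA sums.

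**Figure D4:**
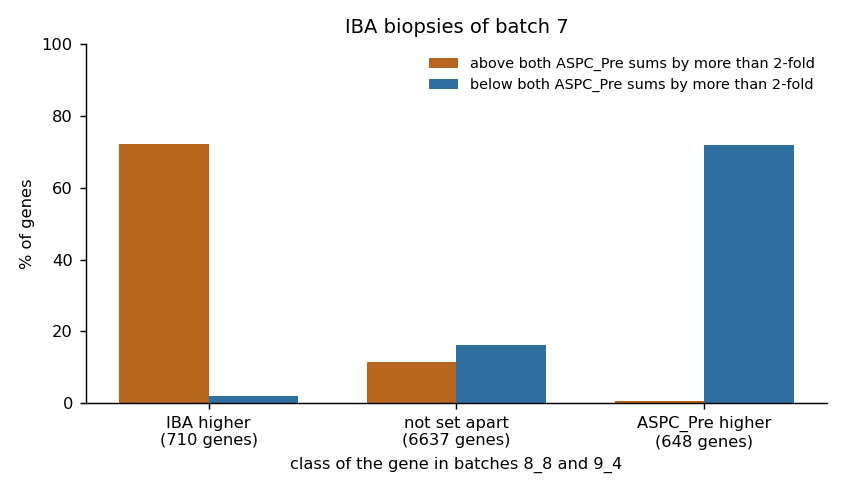
Percent of genes whose level in the IBA biopsies of batch 7 was more than 2-fold above (brown) or below (blue) both ASPC_Pre sums, by the class of the gene in batches 8_8 and 9_4. The brown bar is highest for genes with IBA higher (72.3%) and the blue bar for genes with ASPC_Pre higher (71.8%).

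Whole cells of the same 2 types, 60 of each in batches 8_8 and 9_1 of the scRNA-seq experiment, gave more calls. The same test called 95 genes higher in IBA (0.688%) and 1.94% of genes lower. Of the 95, 83 were higher in IBA in both Live-seq batches (87.4%, against 32.0% of the 7995 genes). Of the 69 at 20 CPM or more in Live-seq, 48 were set apart in the same direction (69.6%, against 8.88%). Of those called lower, 86.6% were higher in ASPC_Pre in both Live-seq batches (against 30.9% of the 7995 genes). Of those at 20 CPM or more, 55.8%, or 129 genes, were set apart with ASPC_Pre higher (against 8.11%). Seen from Live-seq, those 48 and 129 genes were 6.76% of the genes set apart with IBA higher and 19.9% of those with ASPC_Pre higher. None was set apart in the opposite direction. The mean log2 ratios of the techniques had a Pearson's r of 0.67 and a Spearman's rho of 0.57 across the 7995 genes, against 0.40 and 0.36 between the Live-seq batches and 0.65 and 0.58 between the scRNA-seq batches. Genes are not independent replicates, and these are descriptions.

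Several genes described above were among the whole-cell calls. Gpx3 stood at 4.46 and 5.44 CPM in whole IBA cells and at 552.8 and 2830 CPM in whole ASPC_Pre cells, with a log2 fold change of -8.06 and an adjusted p of 0.0107. Thy1 had no count in whole IBA cells either and stood at 112.05 and 225.8 CPM in whole ASPC_Pre cells (adjusted p 0.00433). In the contractile list 6 of the 18 genes tested were called, all lower in IBA, against 1.94% of all genes. Acta2 had a log2 fold change of -4.16 (adjusted p 0.0227). In the S phase list 1 of 15 genes was called higher in IBA, against 0.688% of all genes. This was Mcm2, with a log2 fold change of 2.28 (adjusted p 0.0457), and the others had adjusted p of 0.0705 or more. Of the 4 markers, Tgfbi was called (adjusted p 0.0465), and Sfrp2 (0.0865) and Actg2 (0.302) were not. In batches 8_8 and 9_1 Sfrp2 stood at 132.45 and 1220.1 CPM in whole IBA cells and at 9.77 and 0.335 CPM in whole ASPC_Pre cells. Actg2 stood at 13.19 and 0 CPM in whole IBA cells and at 54.48 and 113.98 CPM in whole ASPC_Pre cells. For both genes the whole-cell ratio in batch 8_8 was smaller than in the biopsies. Pparg (adjusted p 0.515) and Mki67 (0.258) were not called. Neat1 and Malat1 were not called, and in batch 8_8 Neat1 was at 428.4 CPM in whole IBA cells and 582.1 CPM in whole ASPC_Pre cells.

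The difference between IBA and ASPC_Pre was also tested for a change with the technique. Of 13815 genes 0 were called for it by edgeR (0%), and 2.16% had an unadjusted p below 0.05, while DESeq2 called 22 genes (0.159%). For Gpx3 the difference of the log2 fold changes was -4.80 with an SE of 1.04 and an adjusted p of 1. Without the ASPC_Pre sum of batch 9_4 edgeR called 2.8% of genes for it, and without any of the other 3 Live-seq sums 0. A miss of the threshold here does not show that biopsies and whole cells gave equal differences.

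**Figure D5:**
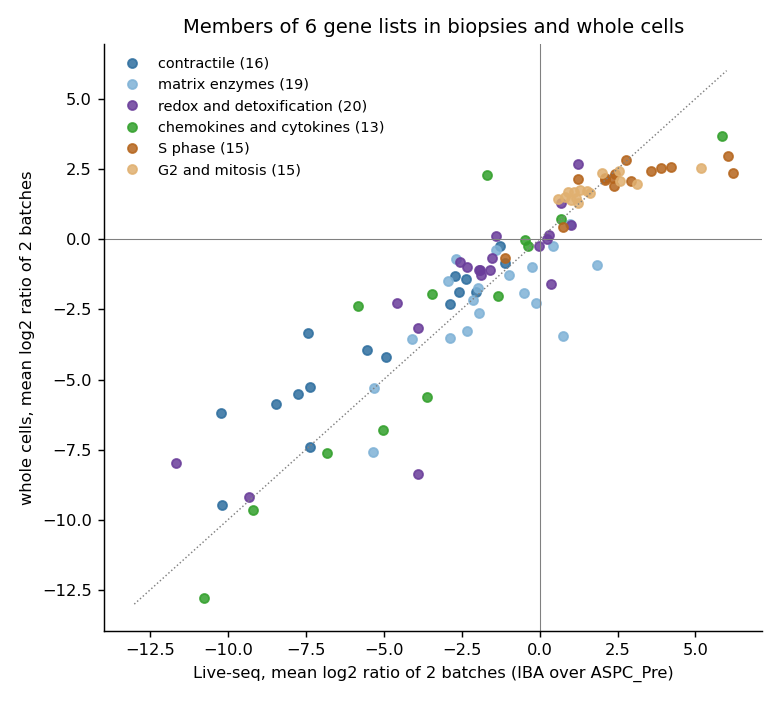
Mean log2 ratio of IBA over ASPC_Pre in Live-seq (x axis, batches 8_8 and 9_4) and in whole cells (y axis, batches 8_8 and 9_1) for the members of 6 gene lists tested and at 20 CPM or more. Each point is a gene, the dotted line marks equal ratios, and a floor of 3 counts per sum was used. Contractile genes lie at the lower left and most S phase genes at the upper right.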

How the data were processed

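Counts of reads per Ensembl gene were deposited by the authors as a single table for all cells. They aligned read 1 with STAR 2.6.1c to mm10 (GRCm38) and counted without strand with HTSeq, so that overlapping and antisense genes cannot be told apart, and no molecular identifiers were used. Of 1012 columns 574 were used, and 438 were left out. As in the study, 20 genes found in negative controls and 92 genes of ribosomal proteins were taken out, a median of 22.4 to 29.8% of the counts of a biopsy in the 4 groups.

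Counts were summed per batch and cell type. edgeR 4.0.16 (glmQLFit with legacy = TRUE, glmQLFTest, TMM, Benjamini-Hochberg, R 4.3.3) was fitted to the 9 Live-seq sums of batches 8_8 and 9_4 with state and batch as terms. To enter, a gene needed a count of 2 or more in 15% or more of the whole cells of any state and had to pass filterByExpr (minimum count 2, minimum proportion 0.05) over Live-seq cells. The labels give the shared batch that pairs the sums, and the deviations of IBA and ASPC_Pre sums of a batch had a correlation of 0.17. DESeq2 1.42.0 was an alternative, and both were tested on simulated data. Intervals and floors cover counting error only. Positions are from GENCODE on GRCm38 and promoter windows from RefSeq. Figures were made in matplotlib 3.10.9.

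The comparison, its members and the 33 gene lists were chosen with earlier results of these data known. Of the listed genes 4 (Abcc9, Lrrn4, Ucp1 and Myf5) were not found in the table. Genes named are called genes, up to 4 listed members with the largest fold, and members picked after their values were seen, among them Sparc, Myh11, Rrm2, Malat1, Ebf2 and the macrophage and Y-linked genes. The rule for genes set apart, and its alternatives, among them the one that takes out the highest cell of a gene, were added after the counts of calls had been seen.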

Additional observations from a re-analysis of the deposited data

Results flagged for a closer look

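The reporter EGFP is not an endogenous gene but was tested with the others. It was among the genes called by DESeq2 and with cells thinned to 50000 counts. Its counts in the Live-seq ASPC_Pre cells of batch 9_4 were flagged. For its sequential sampling experiment, marked by an extraction order of 1 in 31 of these cells, the study extracted selected GFP-expressing ASPCs. EGFP was counted in 67.4% of these cells (29 of 43), above the 0 of 18 ASPC_Pre cells and 0 of 14 IBA cells of batch 8_8, where the exact 95% upper limit is 23.2% for the 14 cells. The highest count in a cell was 2224 among cells with an extraction order of 1, which was higher than in any cell without one. No outlier test was possible with 2 sums per cell type.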

How the results depend on the processing

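The single gene called in Live-seq (0.00724% of genes tested) became 15 (0.109%) with the 4 sums of IBA and ASPC_Pre alone, 2 (0.0145%) with all Live-seq sums or without the ASPC_Pre cells of extraction order 1, and 10 (0.0724%) with the newer edgeR fit. DESeq2 called 1.79%, 34 genes (0.148%) were called with no filter on low counts, and 0.748% with cells thinned to 50000 counts. The count stayed at 1 gene with RLE, with a filter on Live-seq cells and with the removed genes kept. Leaving out any 1 of the 4 sums gave 0 to 0% of genes, with 1.48 to 9.32% at an unadjusted p below 0.05 in edgeR. Without the replicate block 0% were called in Live-seq by edgeR (5.52% at an unadjusted p below 0.05) and 1.43% rather than 2.63% in scRNA-seq. In scRNA-seq DESeq2 called 11.2%, and leaving out 1 sum gave 0.00724 to 3.08%, with 1 gene without ASPC_Pre of batch 9_1, 17 genes without IBA of batch 9_1 and 74 without IBA of batch 8_8. For the difference between techniques DESeq2 called 0.159% rather than 0%, and leaving out 1 Live-seq sum gave 0 to 2.8%. Genes detected per IBA cell of batch 9_4 moved from 6276 to 4908 on thinning. Genes set apart made up 8.88% and 8.11%, with ranges over the added alternatives of 9.25 to 13.1% and 5.73 to 8.4%, and 4.08% and 3.58% with the highest cell of each gene taken out of the higher sums. Where such a share moved, the cause was not tested.

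Of the tested genes named in the report or picked by the rule, 129 kept the direction of their log2 fold change under every alternative run and 24 did not. The genes counted include those with the largest folds in the same sums and those picked after their values were seen. The alternatives reuse the same counts, so a kept direction is no independent support. The share over all genes was not counted. For genes whose direction changed, leaving out 1 sum gave these lowest and highest log2 fold changes. Frzb ran from -8.91 to 1.25, Prdm16 from -3.68 to 1.42, C1s1 from -4.08 to 3.30, Cdkn1b from -2.13 to 4.40 and Pfkp from -0.28 to 1.68. Csf1r ran from -11.93 to 0.14, Eif2s3y from -0.16 to 4.37, Nr2f1 from -5.73 to 2.48, Sox4 from -4.38 to 0.0033, Icam1 from -10.07 to 2.13, Cd34 from -3.68 to 3.67, Kdm5d from -0.52 to 9.82 and Uty from -1.85 to 1.68. Col1a1 ran from -2.75 to 1.45, Akr1b3 from -0.091 to 1.33, Hoxc8 from -2.10 to 1.20, Smtn from -2.34 to 0.16, Col3a1 from -3.07 to 1.41, Tbx15 from -0.66 to 0.25, Sema3c from -8.89 to 1.30, Col1a2 from -0.34 to 1.80, Hoxc9 from -1.27 to 0.038 and Fzd1 from -11.72 to 1.98. With all Live-seq sums Col1a1 was at 0.33 and Fzd1 at 0.93, and with DESeq2 they were at 0.12 and 0.42. Without the block Hoxc8 was at 0.29, Col3a1 at 0.53 and Fzd1 at 0.15, and Fzd1 was at 0.029 with RLE and 0.085 with a filter on Live-seq cells. Ddx3y was at 0.84 with all Live-seq sums. Uty was at -0.24 with all Live-seq sums, -0.013 without the block, -0.014 with the newer edgeR fit and -0.42 with thinned cells. The low number of genes detected in the ASPC_Pre cells of batch 8_8 limits what a value of 0 there can show.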
